A study of Mus musculus with 12 samples.

Results

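The tissue inhibitors of metalloproteinases (TIMPs) are the family of 4 secreted proteins encoded in the mouse by *Timp1*, *Timp2*, *Timp3* and *Timp4*. The members were taken by gene symbol, and all 4 were found among the 27998 genes of 12 single-cell RNA sequencing (scRNA-seq) libraries. The libraries held live cells of hind limb joints that lack CD45, a surface protein of immune cells, and came from male C57BL/6 WT mice of 8 to 10 weeks. Arthritis had been caused by serum transfer (STIA), in which 100 µl of serum from arthritic K/BxN mice, rich in antibodies against a self protein, is injected into a vein. The labels gave 3 libraries each to rest, which is day 0 without serum, to peak at days 7 to 9, to resolving at day 15, and to resolved, taken on day 22. Each library pooled the joints of 3 animals. Counts of unique molecular identifiers (UMIs), tags that each mark 1 captured RNA molecule, were used for 20060 of 21042 deposited cells, with 7468914 to 16566202 UMIs per library.

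Matrix metalloproteinases (MMPs) and the related ADAM and ADAMTS proteases cut collagens, proteoglycans and cell surface proteins. A TIMP binds in the active site of such a protease and blocks it, and the balance between both sides sets how fast cartilage, bone and synovial matrix are broken down. TIMP1 and TIMP2 are soluble inhibitors, TIMP2 also takes part in the activation of MMP2 by MMP14 on the cell surface, TIMP3 binds to the matrix and also inhibits ADAM17 and the aggrecanases, and TIMP4 is known as the member with the narrowest tissue range. Fibroblasts of the synovial lining and sublining are known sources of both MMPs and TIMPs in arthritis.

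The stage labels need a caution before any value is read. Each library's cell barcodes end in a number from 1 to 12, and over 4962 genes in fibroblasts the most similar library had its number in the same run of 3 consecutive numbers (1-3, 4-6, 7-9 or 10-12) for 12 of 12 libraries. It had the same stage label for 0 of 12. Each run mixes 3 of the stage labels, what a run stands for is not given in the sources used here, and values are therefore given both by label and by run, with the label kept as each library's name. The likeness within runs was known beforehand, so a test between runs sets a difference against the spread within runs and is not independent evidence that the runs differ. No cell barcode was shared between libraries. The median number of UMIs per deposited cell was 5358 in every library, and the median mitochondrial share of kept cells was 2.11% to 2.86%.

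3 of the 4 members lie inside a synapsin gene on the opposite strand (GENCODE M21 annotation, GRCm38). *Timp1* (ENSMUSG00000001131) spans chrX:20870166-20874735 on the plus strand within *Syn1*, and it overlaps none of the exons of its host. *Timp3* (ENSMUSG00000020044) spans chr10:86300372-86349506 on the plus strand within *Syn3* and overlaps 1 of its exons. *Timp4* (ENSMUSG00000030317) spans chr6:115241892-115252205 on the minus strand within *Syn2* and overlaps 6 exon records of it. *Timp2* (ENSMUSG00000017466) spans chr11:118301069-118355740 on the minus strand and overlaps *Cep295nl* on the same strand, so that reads shared by both could have been dropped by the counting. The host genes were near the limit of detection in fibroblast-like cells, with 203 UMIs of *Syn1*, 53 of *Syn3* and 9 of *Syn2* over all 12 libraries, beside 109874 UMIs of *Timp1*.

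The sequences just upstream of the start sites of *Timp1* and *Timp3* are shown because these members moved in opposite directions in the comparisons given further on. They are the 250 bases before the start from RefSeq (GRCm38.p6), 5′ to 3′, at chrX:20869916-20870165 on the plus strand for *Timp1* and chr10:86300162-86300411 on the plus strand for *Timp3*. Capitals mark matches of an ETS core (AGGAAG) or a GC box (GGGCGG) on either strand, and none of these matches overlaps another.
Timp1: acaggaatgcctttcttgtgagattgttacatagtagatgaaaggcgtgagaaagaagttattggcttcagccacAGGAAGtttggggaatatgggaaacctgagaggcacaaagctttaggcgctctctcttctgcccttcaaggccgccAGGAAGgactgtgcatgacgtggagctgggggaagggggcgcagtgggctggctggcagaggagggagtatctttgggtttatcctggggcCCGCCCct
Timp3: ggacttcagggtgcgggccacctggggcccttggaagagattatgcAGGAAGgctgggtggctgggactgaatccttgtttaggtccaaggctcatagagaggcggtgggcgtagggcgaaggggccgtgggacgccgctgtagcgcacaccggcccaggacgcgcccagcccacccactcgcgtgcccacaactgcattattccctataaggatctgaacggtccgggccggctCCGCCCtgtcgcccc
In the whole window of 300 bases, from 250 before to 50 after the start, *Timp1* held 3 ETS cores and 1 GC box, *Timp3* 1 and 2, *Timp2* 0 and 1, and *Timp4* 1 and 0. The ETS core was found in 35.4% and the GC box in 35.7% of 32851 RefSeq promoter windows of the same length. The AP-1 motif TGANTCA was in 0 of the 4 windows and in 7.81% of all windows, and the TATA box TATAAA in 0 of the 4 and in 13.6% of all. The AP-1 variant TGAGTAA, searched after the window had been seen, was in that of *Timp1*, after the start site, and in 2.68% of all windows. The GC content was 55% for *Timp1*, 68.7% for *Timp2*, 67% for *Timp3* and 53.3% for *Timp4*. A match describes the letters and not a bound site.

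To see which joint cells express each TIMP, cells were clustered without the TIMP, host, protease and partner genes, and 27 clusters were named as 12 cell types from marker lists, with 3 clusters of 203 cells left unnamed. UMIs were summed per library and type, and levels are given as UMIs per 1000000 UMIs of a sum (CPM). Types were compared with fibroblast-like cells with the library as a block, and a gene was called at an adjusted p under 0.05 with a log2 fold change over 0.5 either way (edgeR quasi-likelihood test). Clusters were made from other genes of the same cells, so a call gives the size of a difference against the spread of libraries and is no independent test of a cell type. The libraries pool animals, so a p-value measures the spread between pools.

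*Timp1* was highest in proliferating-like cells, which carried all 7 fibroblast markers, with 2291 to 7045 CPM and a median of 3688 in the 6 libraries that held enough of them (suffixes 4 to 9). Chondrocyte-like cells followed, with 754 to 2131 CPM and a median of 1406 in 8 libraries, and these ranges did not overlap. The types were present in different libraries, and in run 4-6 fibroblast-like cells, at 3002 to 3838 CPM, lay above every chondrocyte-like library. Medians were 833 CPM in osteoblast-like, 671 in tenocyte-like and 572 in fibroblast-like cells, whose ranges overlapped widely because the fibroblast-like level ran from 214 to 3838. Perivascular-like cells (median 133 CPM), muscle-like cells (122), Schwann-like cells (93.0), lymphatic endothelial-like cells (37.2) and vascular endothelial-like cells (36.0) lay lower. Against fibroblast-like cells *Timp1* was higher in proliferating-like cells by 1.37 (SE 0.31, adjusted p = 0.000171) on the log2 scale. It was lower in vascular endothelial-like cells, at -4.17 (SE 0.31, adjusted p = 1.63e-22), and in lymphatic endothelial-like, perivascular-like, muscle-like and Schwann-like cells, at -4.46 to -2.18. Osteoblast-like (0.24), chondrocyte-like (0.62) and tenocyte-like cells (-0.37) did not pass the test. Osteoblast-like cells, at 546 to 1763 CPM, lay above the fibroblast-like libraries of run 1-3, at 214 to 296. They lay below those of run 4-6, at 3002 to 3838, so the value of 0.24 joins differences of opposite sign.

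*Timp2* was a gene of fibroblast-like, tenocyte-like and osteoblast-like cells and was low in blood vessels and cartilage. Medians were 567 CPM in fibroblast-like, 552 in tenocyte-like, 528 in osteoblast-like and 423 in lymphatic endothelial-like cells, with overlapping ranges. They were 114 CPM in perivascular-like, 79.9 in vascular endothelial-like and 57.4 in chondrocyte-like cells, and no library of these types reached 275 CPM, the lowest fibroblast-like library. *Timp2* was lower than in fibroblast-like cells in 7 of 9 types, among them vascular endothelial-like (-3.09, SE 0.14, adjusted p = 4.62e-36), chondrocyte-like (-2.83, SE 0.19, adjusted p = 4.71e-25) and proliferating-like cells (-1.15, SE 0.17, adjusted p = 1.24e-08). Osteoblast-like (-0.23) and tenocyte-like cells (0.14) did not pass the test, and no type was called higher. The call in lymphatic endothelial-like cells (-0.92) fell under the threshold of 0.5 with RLE size factors (-0.49) and DESeq2 (-0.49).

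*Timp3* was highest in vessel cells, and fibroblast-like cells were among the low types. The median was 1492 CPM in lymphatic endothelial-like, 908 in perivascular-like, 608 in vascular endothelial-like and 527 in Schwann-like cells, against 173 in fibroblast-like and 53.2 in proliferating-like cells. It was called higher than in fibroblast-like cells in 7 of 9 types, with lymphatic endothelial-like cells at 2.40 (SE 0.19, adjusted p = 3.41e-20), perivascular-like at 1.79 (SE 0.18, adjusted p = 2.29e-15) and vascular endothelial-like at 1.502 (SE 0.17, adjusted p = 6.24e-13). Tenocyte-like (1.11), osteoblast-like (0.96), Schwann-like (0.95) and chondrocyte-like cells (0.84) were higher by less. Proliferating-like cells were lower (-1.35, SE 0.24, adjusted p = 3.87e-06), and muscle-like cells did not pass the test (-0.37). The Schwann-like call rests on 3 libraries and was lost at 0.81 to 0.87 when rest 2, peak 2, resolved 1 or resolved 2 was left out and at 0.79 (adjusted p = 0.0655) without the filter on low counts, and the chondrocyte-like value fell to 0.32 (adjusted p = 0.249) when each cell was thinned to 2000 UMIs.

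Among the named cell types, median *Timp4* was highest in vascular endothelial-like and then in perivascular-like cells. Vascular endothelial-like cells had 166 to 1399 CPM with a median of 629.8, perivascular-like cells 30.7 to 269 with a median of 115, and fibroblast-like cells 0.890 to 5.39 with a median of 2.68. Lymphatic endothelial-like cells had 0 to 262 CPM with a median of 20.3, and only 17 of 186 of these cells held a UMI. The ranges of vascular endothelial-like and fibroblast-like cells lay far apart. The difference was 7.35 on the log2 scale for vascular endothelial-like (SE 0.27, adjusted p = 3.81e-44), 5.22 for perivascular-like (SE 0.29, adjusted p = 1.11e-29) and 3.49 for lymphatic endothelial-like cells (SE 0.60, adjusted p = 5.97e-07), and no other type was called. Of all *Timp4* UMIs in the kept cells, 88.5% were in vascular endothelial-like cells, which made up 8.82% of cells.

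**Figure D1:**
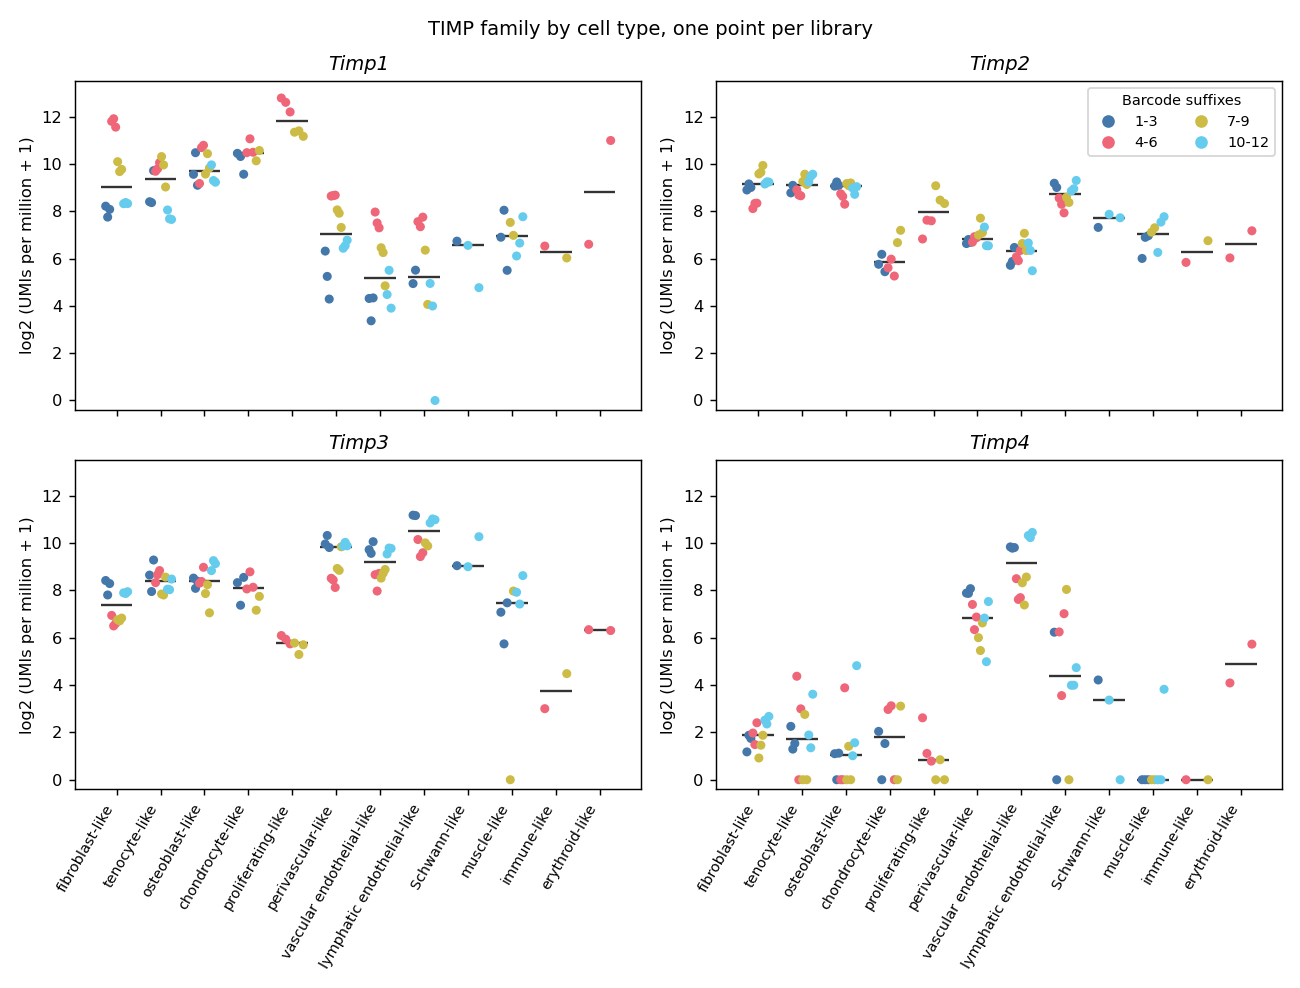
Level of each TIMP as log2 (CPM + 1) on the vertical axis in the 12 named cell types, 1 point for each library with at least 10 cells of the type, coloured by the run of barcode suffixes, with a bar at the median. The median *Timp4* level is highest in vascular endothelial-like cells (629.8 CPM), whose range overlaps with those of perivascular-like and lymphatic endothelial-like cells. The median *Timp1* level is highest in proliferating-like cells (3688 CPM), whose range of 2291 to 7045 overlaps with that of fibroblast-like cells, and the median *Timp3* level is highest in lymphatic endothelial-like cells (1492 CPM).

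These calls should be read against how often any gene was called. Of 10393 genes tested, 53.4% were called in vascular endothelial-like, 39.4% in lymphatic endothelial-like, 40% in perivascular-like, 28% in osteoblast-like, 47.2% in chondrocyte-like, 17.5% in tenocyte-like, 26.6% in proliferating-like, 37.7% in muscle-like and 15% in Schwann-like cells. All 4 members were called in the vascular endothelial-like, lymphatic endothelial-like and perivascular-like comparisons, with the exception of *Timp2* in lymphatic endothelial-like cells under the other scaling and tool. Immune-like and erythroid-like cells had 2 sums each and were not tested, and *Timp1* was at 64.1 and 91.2 CPM in the former and at 96.1 and 2030.1 CPM in the latter.

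The proteases that TIMPs block had their own distribution. Of 9 MMP genes tested, 1 was higher and 7 were lower in vascular endothelial-like than in fibroblast-like cells, with *Mmp15*, a membrane MMP, at 5.76 (SE 0.25) and *Mmp3* at -5.46 (SE 0.48). Of 15 ADAM and ADAMTS genes 6 were higher and 7 lower there, led by *Adamts9* at 4.70 (SE 0.15), and of 13 partners 2 were higher and 7 lower, with the VEGF receptor gene *Kdr*, whose product TIMP3 binds, at 7.88 (SE 0.17). In perivascular-like cells genes of both protease lists were called in each direction. *Adamts9* (4.72, SE 0.18) and the aggrecanase *Adamts4* (4.67, SE 0.22) were higher, and the aggrecanase *Adamts5* was lower (-2.45, SE 0.20). *Mmp15* was higher there (2.58, SE 0.52), and *Mmp3* (-4.52, SE 0.52), *Mmp2* (-3.80, SE 0.27) and *Mmp13* (-3.66, SE 0.56) were lower. In osteoblast-like cells 3 MMP genes were higher and 3 lower, with *Mmp13* at 4.52 (SE 0.41), *Mmp14* at 1.33 (SE 0.19) and *Mmp3* at -3.34 (SE 0.39).

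Shares of cells with a UMI are given for *Timp1* and *Timp4* in fibroblast-like and vascular endothelial-like cells. A UMI of *Timp1* was found in 64.4% of 12653 fibroblast-like cells (95% Wilson interval 63.5% to 65.2%) and in 14.6% of 1769 vascular endothelial-like cells (13.02% to 16.31%), at median depths of 5796 and 3186 UMIs. With each cell thinned to 2000 UMIs, leaving out 213 and 201 shallower cells, the shares were 45.1% and 7.59%. *Timp4* was found in 57.9% of vascular endothelial-like cells (55.6% to 60.2%) and in 1.48% of fibroblast-like cells (1.28% to 1.70%), and in 49.2% and 0.458% after thinning. Intervals cover counting error only.

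RNA released by broken fibroblasts can enter any droplet, so the low levels were set beside fibroblast markers measured the same way. In vascular endothelial-like cells *Timp1* stood at 3.19% to 13.47% of its fibroblast-like level in the same library (median 6.54%), while the 7 fibroblast markers, all of them detected, stood at 1.67% to 14.6% of theirs (median 6.78%). *Timp1* was above the markers in 5 of 12 libraries. In lymphatic endothelial-like cells it stood at a median of 6.20% against 4.02% for the markers and was above them in 5 of 10 libraries. In perivascular-like cells it stood at a median of 21.2% against 9.41% for the markers and was above them in 10 of 12 libraries. *Timp4* in perivascular-like cells stood at a median of 25.9% of its vascular endothelial-like level (2.56% to 56.4%), against 5.83% for the 7 vascular endothelial markers (3.02% to 7.03%), and was above them in 11 of 12 libraries. The fibroblast markers include *Pdpn* and *Gsn*, and how much of a marker sum was the cells' own RNA was not measured. The part of carried-over RNA in these values was not tested.

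Within the vascular endothelial-like cells the *Timp4* level depended on the cluster. Cluster 9, in which *Timp4* itself was the gene with the highest fold, followed by genes of capillaries such as *Gpihbp1* and *Cd36*, had 756 to 1657 CPM with a median of 1332. Cluster 15, led by genes of venules such as *Selp* and *Vwf*, had 6.65 to 258 with a median of 100.2. Cluster 9 was above cluster 15 in every one of 12 libraries, and the ranges did not overlap, given here as a description since the clusters were drawn from the same cells. *Timp3* overlapped between the 2 clusters, at 542 to 1034 CPM in cluster 9 and 168 to 1145 in cluster 15.

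**Figure D2:**
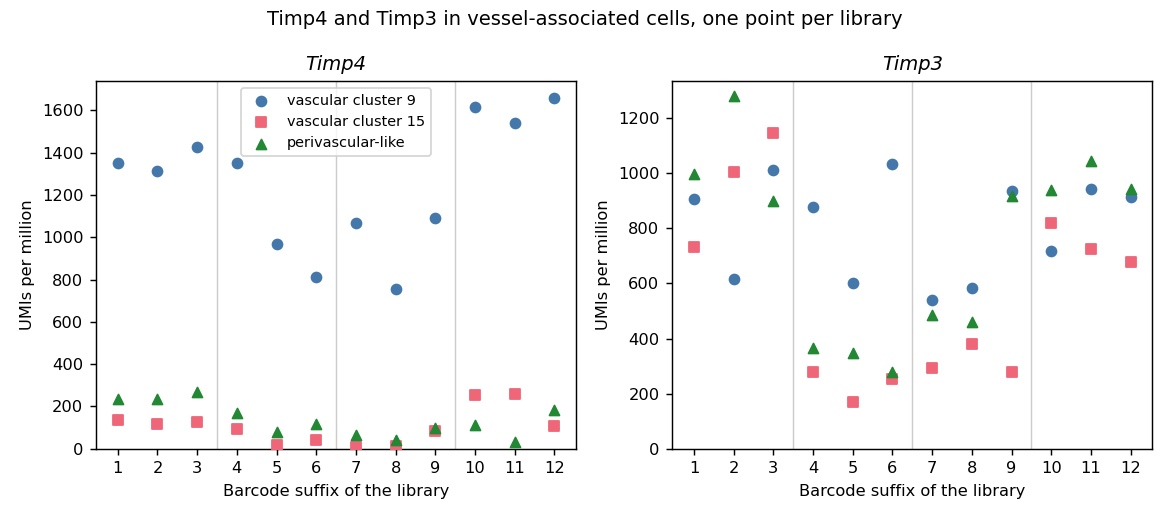
CPM of *Timp4* (left) and *Timp3* (right) on the vertical axis in vascular endothelial-like clusters 9 and 15 and in perivascular-like cells, 1 point per library, with libraries ordered by barcode suffix on the horizontal axis and grey lines between runs. *Timp4* in cluster 9 stays between 756 and 1657 CPM and above cluster 15 in every library, while *Timp3* in cluster 15 is at 168 to 379.8 CPM in suffixes 4 to 9 and at 678 CPM or more in the others.

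Lining-like fibroblasts (cluster 10, with *Prg4*, which encodes lubricin) and sublining-like fibroblasts (cluster 4, with *Pi16* and *Dpp4*) were compared to ask whether the TIMPs differ between these subsets. *Timp1* ran from 378 to 6639 CPM in lining-like (median 981) and from 97.7 to 391 in sublining-like cells (median 214). It was higher in the lining-like cells of 12 of 12 libraries, by 2.51 on the log2 scale (SE 0.23, adjusted p = 5.21e-09, n = 12). This value joins gaps of unlike size, wider in run 4-6 than in run 1-3, with the levels given further on. *Timp3* was lower in lining-like cells, at 17.3 to 76.4 CPM against 223 to 391 in sublining-like cells, with no overlap and a difference of -2.73 (SE 0.14, adjusted p = 2.10e-13). *Timp2* was at 229.6 to 547 CPM in lining-like and 612 to 1233 in sublining-like cells, also without overlap, with a difference of -1.01 (SE 0.09, adjusted p = 2.89e-09). *Timp4* had too few UMIs to be tested. Of 5826 genes tested, 12.5% were called higher and 14.8% lower in lining-like cells. High *Timp1* with low *Timp3* was not particular to the lining-like cluster. Median *Timp1* and *Timp3* were 1459 and 64.3 CPM in cluster 6, 2730 and 74.8 in cluster 5, and 651 and 81.9 in cluster 1. Clusters 5 and 1 had sums in 6 and 8 libraries. Clusters 2, 8, 11 and 12 had lower *Timp1* and higher *Timp3* medians than these, and in cluster 16 they were 1535 and 403. Median *Timp2* was 406 CPM in lining-like and 732 in sublining-like cells. In clusters 16, 11, 5, 12, 2, 8, 6 and 1 it was 248, 401, 426, 428, 542, 561, 666 and 981. A *Timp2* level below the sublining-like one was thus not particular to the lining-like cluster.

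Proteases and partners of the TIMPs were counted from set lists. Of 23 MMP genes 5 passed the filter, 0 were higher and 2 were lower in lining-like cells, *Mmp23* at -1.87 (SE 0.16) and *Mmp2*, a gelatinase, at -1.55 (SE 0.23, adjusted p = 5.37e-06). Of 27 ADAM and ADAMTS genes 8 passed, 0 were higher and 4 lower, led by *Adam33* at -5.07 (SE 0.22), *Adamts2*, which trims procollagen, at -2.34 (SE 0.17) and the aggrecanase *Adamts5* at -0.99 (SE 0.12). Of 14 partners and other inhibitors 8 passed, 2 were higher and 3 lower. *Efemp1*, a matrix protein that binds TIMP3, was at -2.26 (SE 0.18), and *Reck*, a membrane-anchored MMP inhibitor, at -2.01 (SE 0.20). *Mmp3* (-0.91, adjusted p = 0.0914), *Mmp14* (0.06), *Adam17* (0.20), the clearance receptor gene *Lrp1* (0.04) and *Cd63*, a TIMP1-binding tetraspanin (0.44), were not called. The medians of these lists were -0.91, -0.50 and 0.23 in this order, beside -0.02 over all genes tested.

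By stage label, no TIMP was called in fibroblast-like cells. *Timp1* had 296, 3838 and 869.5 CPM in the 3 rest libraries, 214, 3002 and 318 in peak, 269, 1090.3 and 329 in resolving and 3554, 816 and 319 in resolved. Every label thus held libraries that differed more than 4-fold, and all 4 groups overlapped. The log2 fold change of *Timp1* against rest was -0.55 (SE 1.21) for peak, -1.63 (SE 1.24) for resolving and -0.15 (SE 1.21) for resolved, with adjusted p-values of 0.999 to 0.9999 in edgeR. *Timp2*, *Timp3* and *Timp4* were not called for any label, with fold changes of -0.25 to 1.06 and adjusted p-values in the same range. The share of all 11835 genes called was 0% for peak, 0% for resolving and 0% for resolved, with 85, 76 and 55 genes at an unadjusted p under 0.05 in edgeR and 0, 1 and 0 genes called by DESeq2.

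Ordered by barcode suffix, *Timp1* was highest in run 4-6, followed by run 7-9. Libraries with suffixes 1 to 3 had 296, 214 and 269 CPM in fibroblast-like cells, those with 4 to 6 had 3554, 3838 and 3002, those with 7 to 9 had 1090.3, 816 and 869.5, and those with 10 to 12 had 318, 329 and 319. No library of run 4-6 overlapped with any other, and the lowest of run 7-9 lay above all of runs 1-3 and 10-12. *Timp1* was higher in run 4-6 than in 1-3 by 3.84 on the log2 scale (SE 0.16, adjusted p = 7.09e-09, n = 3 and 3) and lower in run 7-9 than in 4-6 by -1.95 (SE 0.15, adjusted p = 4.63e-06). Runs 10-12 and 1-3 differed by 0.41 (SE 0.14, adjusted p = 0.155).

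*Timp2* and *Timp3* moved in other directions between the same libraries. *Timp2* was at 475, 568 and 512 CPM in run 1-3, 275, 321 and 322 in run 4-6, 761, 798 and 977 in run 7-9 and 566, 603 and 599 in run 10-12. Run 4-6 was the lowest and run 7-9 the highest without overlap, with changes of -0.67 (SE 0.12, adjusted p = 0.000539) from 1-3 to 4-6 and 1.42 (SE 0.12, adjusted p = 1.10e-05) from 4-6 to 7-9. *Timp3* was at 341, 223 and 312 CPM in run 1-3, 122, 89.4 and 96.4 in run 4-6, 107, 104 and 113 in run 7-9 and 237, 233 and 246 in run 10-12. It was lower in run 4-6 than in 1-3 by -1.41 (SE 0.13, adjusted p = 3.14e-06) and did not differ detectably between 7-9 and 4-6 (0.03, SE 0.13, adjusted p = 0.893). *Timp4*, at 0.890 to 5.39 CPM from 7 to 43 UMIs per library, passed the test over all runs (adjusted p = 0.0135) but none of the 3 comparisons between runs, and the former was lost with the stage label (adjusted p = 0.0599) in the model.

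**Figure D3:**
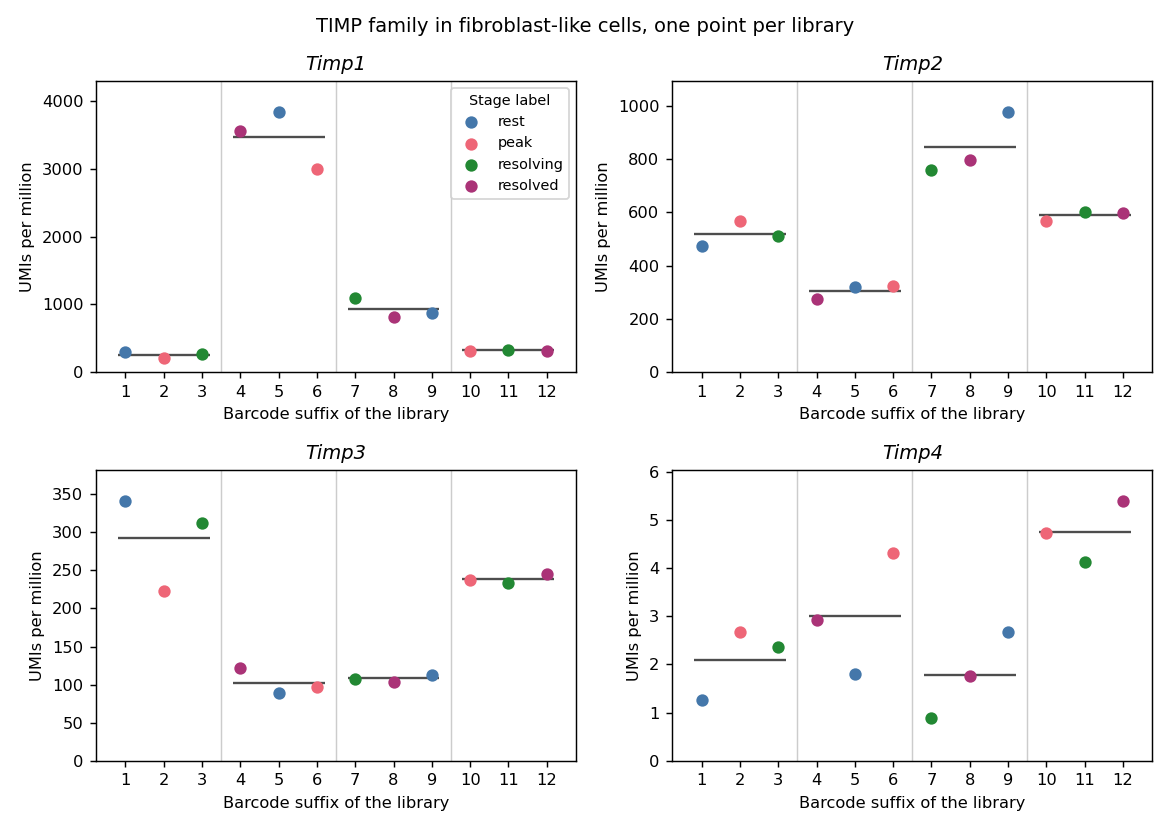
CPM of the 4 TIMPs in fibroblast-like cells on the vertical axes, 1 point per library ordered by barcode suffix and coloured by stage label, with a bar at the mean of each run of 3. The 3 libraries of each run lie together whatever their label, with *Timp1* between 3002 and 3838 CPM in suffixes 4 to 6 and between 214 and 329 in suffixes 1 to 3 and 10 to 12.

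Over all runs 57.9% of 11835 genes were called, so a call by itself says little. From 1-3 to 4-6, 16.3% of genes were called higher and 17.3% lower, from 4-6 to 7-9 9.62% and 8.04%, and from 1-3 to 10-12 1.09% and 0.499%. These comparisons share libraries of runs 1-3 and 4-6 and are not independent of each other. The 7 fibroblast markers summed to 53115 to 69812 CPM in the fibroblast-like cells of run 1-3 and to 18410.3 to 21594 in run 4-6. The 7 immune markers, all detected, summed to 1.44 to 3.24 CPM in run 1-3 and to 3.79 to 12.1 in run 4-6, and the 7 vascular endothelial markers to 12.2 to 15.8 and 20.8 to 23.9 CPM. Their part in the TIMP changes was not tested.

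The proteases moved more often up than down in run 4-6. Of 11 MMP genes tested 5 were higher and 1 lower than in run 1-3, with a list median of 1.23. *Mmp3*, stromelysin 1, had a mean of 85.9 CPM in run 1-3 and 714 in run 4-6 (3.15, SE 0.38, adjusted p = 2.12e-05), and *Mmp14*, the membrane MMP that activates MMP2, 183 and 433 (1.33, SE 0.36, adjusted p = 0.00880). *Mmp27*, with 153 UMIs in all, was lower (-2.47, SE 0.53), and *Mmp12*, with 0 CPM in every library of run 1-3 and a mean of 1.28 in run 4-6, is given no fold. *Mmp13*, the main collagenase of mouse joints, was not called (93.1 and 266 CPM, 1.62, SE 0.82, adjusted p = 0.129), nor was *Mmp2* (906 and 978 CPM, 0.21), which was higher in run 7-9 than in 4-6 (0.97, SE 0.13) and in run 10-12 than in 1-3 (0.58, SE 0.13, adjusted p = 0.0406). With a replicate block in edgeR 0 genes were called between runs 10-12 and 1-3, *Mmp2* included.

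Of 22 ADAM and ADAMTS genes tested 8 were higher and 2 lower in run 4-6, with a list median of 0.41. *Adam12*, a disintegrin protease of activated mesenchymal cells, rose from a mean of 1.99 to 59.5 CPM (4.98, SE 0.22, adjusted p = 8.86e-09). *Adamts16* was at 2.81 (SE 0.58) and *Adamts8* at -2.77 (SE 0.84), both from means under 8 CPM. *Adam17*, which sheds TNF and is inhibited by TIMP3, was not called (22.9 and 25.4 CPM, 0.23, adjusted p = 0.130), nor was *Adamts5* (187 and 152 CPM, -0.21, adjusted p = 0.318).

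Of 9 partners and other inhibitors tested 2 were higher and 5 lower, with a median of -1.05 beside -0.01 over all genes tested. *Reck* fell from 37.3 to 13.3 CPM (-1.39, SE 0.12, adjusted p = 1.15e-06), *Efemp1* from 149.8 to 67.5 (-1.05, SE 0.14, adjusted p = 5.91e-05), and *Spock2*, a testican, was lower (-1.81, SE 0.21). *Cd63* rose from 1484 to 2420.1 CPM (0.80, SE 0.10). *Lrp1* was not called (0.18, adjusted p = 0.175). From run 4-6 to 7-9, where 9.62% of all genes were called higher and 8.04% lower, 2 of 11 MMP genes tested were higher and 0 lower, 4 of 22 ADAM and ADAMTS genes were higher and 3 lower, and 0 of 9 partners were higher and 2 lower.

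**Figure D4:**
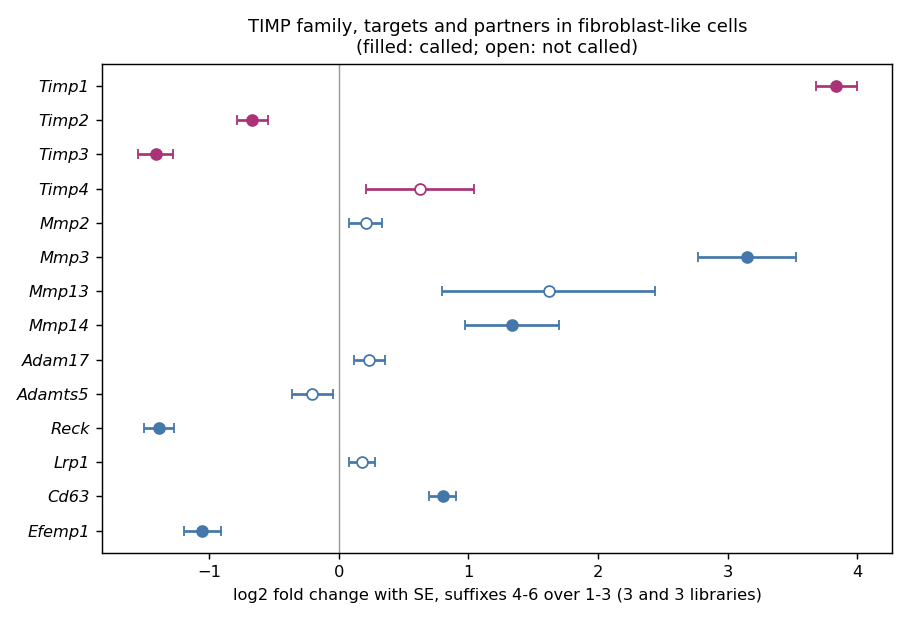
Log2 fold change between runs 4-6 and 1-3 in fibroblast-like cells on the horizontal axis, with bars of 1 SE, for the 4 TIMPs and 10 proteases and partners (3 and 3 libraries, filled points are called). *Timp1* (3.84) and *Mmp3* (3.15) are the highest of those drawn, and *Timp3* (-1.41) and *Reck* (-1.39) the lowest.

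The makeup of the fibroblast-like cells differed between runs, so the TIMPs were also read within clusters. Cluster 5, led by *Cxcl5*, *Saa3* and *Sfrp1*, held 35.7% to 40.4% of the fibroblast-like cells in run 4-6 and 0% in run 1-3. Cluster 1, led by *C1qtnf3* and *Cthrc1*, held 32.6% to 42.5% in run 7-9, and the sublining-like cluster 4 went from 20.4% to 29.5% in run 1-3 to 2.63% to 4.63% in run 4-6. With 7 clusters present in every library weighted equally, an alternative added after the data were seen, the log2 ratio of mean levels between runs 4-6 and 1-3 was 2.20 for *Timp1*, -0.37 for *Timp2* and -0.30 for *Timp3*, against 3.74, -0.76 and -1.51 over all fibroblast-like cells.

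In lining-like cells *Timp1* was at 378, 389.8 and 471 CPM in run 1-3 and at 4398, 6639 and 4652 in run 4-6, a change of 3.64 (SE 0.19, adjusted p = 8.08e-11). Cluster 16, led by *Cytl1* and *Clu*, changed alike, from 317 and 558 to 4379 to 8392 CPM (3.76, SE 0.45, adjusted p = 0.000234), and cluster 6, led by *Col5a3* and *Il1rl1*, by 2.06 (SE 0.35). In sublining-like cells it was at 120, 138 and 166 CPM in run 1-3 and at 391, 259.8 and 269.5 in run 4-6, a change of 1.09 (SE 0.28) that did not pass the test (adjusted p = 0.0532). Over all 4 runs *Timp1* was called in clusters 2, 4, 6, 8, 10 and 16, where 3.15%, 5.54%, 33.7%, 3.24%, 20% and 10.9% of all genes were called. It was not called in clusters 11 and 12, where 3.82% and 2.7% were.

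*Timp3* was at 41.3 to 76.4 CPM in the lining-like cells of all runs but 7-9, where it fell to 17.3 in 1 library, and at 223 to 391 in sublining-like cells of every run. It was not called over runs in either (adjusted p = 0.142 and 0.739), and from run 1-3 to 4-6 it changed by -0.24 and 0.20, the latter opposite in sign to all fibroblast-like cells. It was called in clusters 2, 6 and 16. *Timp2* was called over runs in clusters 2, 4, 6 and 10, with lining-like cells at 349 to 389.8 CPM in run 1-3 and 229.6 to 239 in run 4-6 (-0.69, SE 0.15, adjusted p = 0.00274) and sublining-like cells at 639 to 734 and 612 to 632 (-0.21, adjusted p = 0.698).

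**Figure D5:**
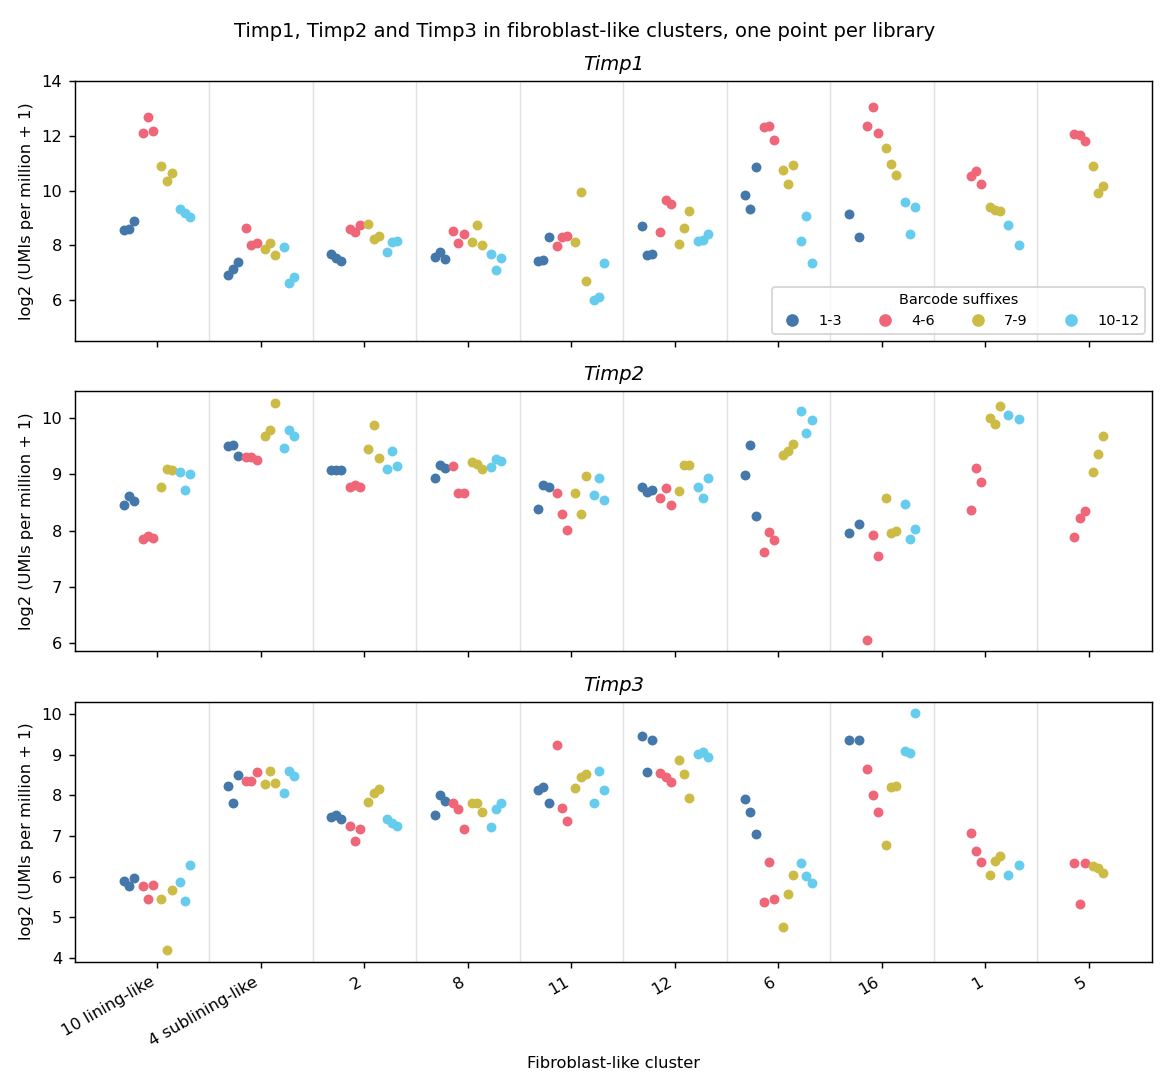
Levels of *Timp1*, *Timp2* and *Timp3* as log2 (CPM + 1) on the vertical axes in 10 fibroblast-like clusters, 1 point per library with at least 10 cells, coloured by run of barcode suffixes. In the lining-like cluster *Timp1* runs from 378 CPM in suffixes 1 to 3 to 6639 in suffixes 4 to 6, while in the sublining-like cluster it stays between 97.7 and 391.

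Other cell types were tested for differences over runs one at a time. *Timp1* in vascular endothelial-like cells was at 18.9, 9.32 and 19.2 CPM in run 1-3 and at 248.7, 180.1 and 156 in run 4-6 (3.64, SE 0.38, adjusted p = 3.42e-06), with fibroblast markers summing to 1165 to 3980 and 1073 to 2948 CPM in the same cells. In perivascular-like cells it was at 78.5, 36.9 and 18.5 CPM and at 398, 403 and 409 (3.00, SE 0.30, adjusted p = 1.08e-05), with fibroblast markers at 1722 to 2970 and 2261 to 2716. In fibroblast-like cells of the same runs these markers summed to 53115 to 69812 and 18410 to 21594 CPM. *Timp1* was there at 214 to 296 and 3002 to 3838 CPM. The part of carried-over RNA in these changes was not tested. *Timp1* was also called over runs in lymphatic endothelial-like (adjusted p = 0.0188) and tenocyte-like cells (adjusted p = 0.00123), but not in osteoblast-like cells, at 546 to 1419 CPM in run 1-3 and 575 to 1763 in run 4-6 (adjusted p = 0.510).

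*Timp3* was lower in run 4-6 in 3 types of vessel cells. In vascular endothelial-like cells it was at 843, 757 and 1066 CPM in run 1-3 and 405, 250.4 and 420.4 in run 4-6 (-1.28, SE 0.17, adjusted p = 4.65e-05), in perivascular-like cells at 898 to 1279 and 278 to 364 (-1.70, SE 0.24, adjusted p = 0.000201), and in lymphatic endothelial-like cells at 2291 and 2318 and at 689 to 1136 (-1.46, SE 0.23, adjusted p = 0.00122). None of these groups overlapped. *Timp4* in vascular endothelial-like cells was at 881 to 915 CPM in run 1-3, 196 to 359.9 in run 4-6, 166 to 378 in run 7-9 and 1201 to 1399 in run 10-12 (adjusted p = 5.47e-07 over runs). In perivascular-like cells it was at 234 to 269, 80.1 to 169, 43.0 to 97.8 and 30.7 to 184 CPM (adjusted p = 0.00652 over runs). Cluster 9, which holds most of it, made up 70.1% to 72.6%, 32.4% to 36.3%, 24.6% to 42.9% and 80.8% to 88.7% of these cells in the 4 runs, and within it *Timp4* was at 1311 to 1429, 810.1 to 1354, 756 to 1091 and 1542 to 1657 CPM. The share of genes called over runs was 25.5% in vascular endothelial-like, 9.08% in lymphatic endothelial-like, 26.1% in perivascular-like, 2.06% in osteoblast-like and 8.09% in tenocyte-like cells.

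Whether a TIMP differed in its course over runs from fibroblast-like cells was tested as an interaction over all 4 runs, to which the adjusted p-values belong. It was called for *Timp1* in osteoblast-like, tenocyte-like and perivascular-like cells, for *Timp2* in the same 3 types, for *Timp3* in osteoblast-like and tenocyte-like cells and for *Timp4* in vascular endothelial-like and perivascular-like cells. The change of *Timp1* from run 1-3 to 4-6 was smaller than in fibroblast-like cells by -3.23 on the log2 scale in osteoblast-like cells (SE 0.37, adjusted p = 1.68e-06) and by -2.82 in tenocyte-like cells (SE 0.27, adjusted p = 3.24e-07). In vascular endothelial-like cells the difference for *Timp1* was -0.24 (SE 0.40, adjusted p = 0.515), which did not pass the test, and no member was called in lymphatic endothelial-like cells. The makeup of the fibroblast-like cells also changed. Cluster 5 held 0% of them in run 1-3 and 35.7% to 40.4% in run 4-6. With clusters weighted equally, the fibroblast-like log2 ratio between these runs was 2.20 for *Timp1*, -0.37 for *Timp2* and -0.30 for *Timp3*. These ratios were smaller in size than over all fibroblast-like cells. The part of makeup in the interactions was not tested. The shares of all genes called in these interactions were 11% for vascular endothelial-like, 1.39% for lymphatic endothelial-like, 7.35% for perivascular-like, 7.4% for osteoblast-like and 9.93% for tenocyte-like cells.

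The genes whose pattern was most like each member were listed as a description. Over the 12 fibroblast-like libraries, among 4837 genes with a mean of at least 20 CPM, the genes most like *Timp1* included *Cfl1*, *Rnf149*, *Manf* and *Fads3* (Pearson's r 0.981 to 0.986). *Timp2* was nearest to *Pamr1*, *Bcas2*, *Ube2b*, *Adgrg2* and *Atp6v1g1* (0.944 to 0.978) and *Timp3* to *Sestd1*, *Scg3*, *Spop*, *Slc6a6* and *Tmx2* (0.964 to 0.988). *Timp4*, near the limit of detection there, reached 0.783 with *Srsf2*. The libraries form runs of alike libraries, so such values are high for many genes. Between members r was -0.86 for *Timp1* and *Timp3*, -0.54 for *Timp1* and *Timp2* and 0.11 for *Timp2* and *Timp3*.

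Over the 12 named cell types, among 5439 genes, *Timp1* was nearest to *Sec61g*, *Fkbp11*, *Kdelr2*, *Tmed2* and *Txndc5*, genes of the secretory pathway (r 0.883 to 0.931). *Timp2* was nearest to *Rnase4*, *Pqlc3*, *Abi3bp*, *Ctsl* and *Lrrn4cl* (0.851 to 0.954) and *Timp3* to *Taf3*, *Bcar1*, *Utrn*, *Tmed4* and *Hes1* (0.905 to 0.920). *Timp4* was nearest to *Esam*, an endothelial junction gene and 1 of the vascular markers, *Fabp4*, *Adgrf5*, *Bcam* and *Ednrb* (0.873 to 0.917).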

How the data were processed

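Live CD45-negative joint cells of 12 libraries were sequenced with 10x 3′ chemistry. The authors aligned reads with Cell Ranger to mm10, per the labels, and deposited UMI counts per gene and cell, which were used as deposited. The depth was 7468914 to 16566202 UMIs per library. The deposited files had a median of 5358 UMIs per cell in every library. Of 27998 gene identifiers 27645 were matched to GENCODE M21.

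The main results used no limit on mitochondrial UMIs, and a limit of 10% was an alternative setting. Cells with 500 to 5000 genes, at least 500 UMIs and at most 20000 UMIs (25000 in 1 and 30000 in 2 resolving libraries, 40000 in peak libraries) were kept. They were scaled to 10000 UMIs, and 2000 variable genes, 30 components and 20 neighbours entered Leiden clustering (scanpy 1.11.5, leidenalg 0.10.2) at a resolution of 1, with 71 TIMP, host, protease and partner genes held out. Clusters were named from marker lists. Scrublet called 59 cells (0.294%), which is too few to be of use, and no doublets were removed. Names were rebuilt here and may differ from those of the study.

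UMIs were summed per library and cell type (at least 10 cells) and tested with edgeR 4.0.16 (R 4.3.3, TMM, filterByExpr, quasi-likelihood F test, Benjamini-Hochberg over all genes tested), which was tested on simulated data. Standard errors are the log2 fold change over the root of F. The test over runs has 3 degrees of freedom. DESeq2 1.42.0 was an alternative. The members and lists were chosen with earlier results of these data known. Named genes were the members, a set of 10 proteases and partners, and up to 3 called genes of each list with the largest fold, and some genes that this rule names are not reported here. Stage labels were used as given, and the run of barcode suffixes is a grouping by technical label.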

Additional observations from a re-analysis of the deposited data

Results flagged for a closer look

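The course over the 4 runs differed between fibroblast-like cells and another cell type for 10 pairs of a member and a type, by the interaction over all runs (edgeR quasi-likelihood test, adjusted p under 0.05). The values below are the log2 change from run 1-3 to 4-6 of the type minus that of fibroblast-like cells, and the p is that of all runs and not of this change alone. The fibroblast-like change is partly bound to a change in makeup. With clusters weighted equally its log2 ratio was 2.20 for *Timp1*, -0.37 for *Timp2* and -0.30 for *Timp3*, each smaller in size than over all fibroblast-like cells. The part of makeup in the values below was not tested.

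For *Timp1* the difference was -3.23 (SE 0.37, adjusted p = 1.68e-06) in osteoblast-like, -2.82 (SE 0.27, adjusted p = 3.24e-07) in tenocyte-like and -0.69 (SE 0.35, adjusted p = 4.80e-05) in perivascular-like cells. For *Timp2* it was 0.15 (SE 0.18, adjusted p = 0.00944) in osteoblast-like, 0.47 (SE 0.17, adjusted p = 0.00782) in tenocyte-like and 0.89 (SE 0.30, adjusted p = 0.0268) in perivascular-like cells. The osteoblast-like value of *Timp2* is within its error. For *Timp3* it was 1.70 (SE 0.22, adjusted p = 4.00e-05) in osteoblast-like and 1.41 (SE 0.23, adjusted p = 3.04e-05) in tenocyte-like cells. For *Timp4* it was -2.52 (SE 0.39, adjusted p = 0.000136) in vascular endothelial-like and -1.57 (SE 0.45, adjusted p = 0.000105) in perivascular-like cells, against a fibroblast-like level under 6 CPM.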

How the results depend on the processing

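Sublining-like cells alone gave from run 1-3 to 4-6 1.09 for *Timp1*, -0.21 for *Timp2* and 0.20 for *Timp3*, the last with its sign turned, and from 4-6 to 7-9 -0.28 for *Timp1* and 0.71 for *Timp2*, none called. *Timp3* was also not called in lining-like cells alone (-0.24, span between runs 0.81) or over runs in sublining-like cells (span 0.26). With fibroblast-like clusters weighted equally, added after seeing the data, the log2 ratios were 2.20, -0.37 and -0.30. The call of *Timp4* over runs was lost with a replicate block (span 1.17, adjusted p = 0.117) and with the stage label as a term (1.33, adjusted p = 0.0599), and *Timp4* was called from 4-6 to 7-9 with the highest doublet scores removed (-1.28, adjusted p = 0.0407). The replicate numbers do not pair the samples, with correlations of deviations of -0.64 to 0.71, and the block changed no other member's call. With it 4446 instead of 6852 genes were called over runs, 1386 instead of 2089 from 4-6 to 7-9 and 0 instead of 188 from 1-3 to 10-12.

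*Timp1* was called higher in 2 types instead of 1, chondrocyte-like cells being added, with RLE size factors, at Leiden resolution 0.5 and with thinned cells. Leaving out 1 library gave 1 to 2 such types for *Timp1* (chondrocyte-like 0.80, 0.91 and 0.83 without rest 2, peak 2 and resolved 1) and 1 to 2 types called lower for *Timp3* (muscle-like -0.70 without resolved 3). Among single values, *Timp2* in lymphatic endothelial-like cells was under the threshold with RLE (-0.49) and DESeq2 (-0.49), and tenocyte-like *Timp1* was called without upper limits on genes and UMIs (-0.69). The cause of these shifts was not tested. Of other results 887 for main comparisons and 756 for single values stayed on the same side.

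Counts over all genes moved too. Between lining-like and sublining-like cells 3314 genes were called without a filter and 2792 by DESeq2, against 1592. Thinning to 2000 UMIs called 3586 against 6852 genes over runs, 1979 against 3982 from 1-3 to 4-6, 959 against 2089 from 4-6 to 7-9, and 1153 to 3502 against 1815 to 5546 in 8 cell types. From 1-3 to 10-12 the count of 188 became 424 without a filter, 309 by DESeq2, 64 with the stage label and 30 to 316 with 1 library left out. The subset comparison was not run at Leiden resolution 0.5, which had no sublining-like cluster. Libraries pool animals, so spread between animals was not measured, and low counts limit *Timp4* outside vessels.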
